A study of Mus musculus with 6 samples.

Results

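The genes described here are the G1 regulators Ccnd1, Ccnd2, Ccnd3, Cdk2, Cdk4, Cdk6, Cdkn1b, Cdkn2c, Cdkn2d and Rb1. They were picked by symbol, and all 10 had a single entry among the 17169 gene entries of a deposited expression table. Levels are FPKM, that is, sequenced fragments scaled by transcript length and by the mapped fragments of the library. The table holds 6 RNA sequencing libraries from mouse SCLL lines. SCLL, stem cell leukemia and lymphoma, is a cancer of blood cells in which a fusion protein carries the kinase of the receptor FGFR1. The lines BBC, ZNF and BCRF8C (BBC2 and ZNF112 in the culture notes) came from marrow of diseased Balb/c mice, and no source used here gives their fusion partners. Each was grown for 24 h in DMSO or with BGJ398 (infigratinib), an inhibitor of FGFR kinases, and all 3 lines carry the disease, so no normal cells were compared. The labels list 3 doses after the 3 lines, and read in that order they were 30 nM for BBC, 3 nM for ZNF and 1.5 nM for BCRF8C; dose and line cannot be told apart. There was 1 library per line and agent, with no repeat cultures named. The p-values thus rest on the spread between 3 lines, which limma moderates with the spread of other genes.

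Cells decide in G1 whether to copy their DNA. Mitogenic signals raise D-type cyclins, which bind the kinases CDK4 and CDK6. These kinases begin to phosphorylate the retinoblastoma protein, and CDK2 with cyclin E completes the step, which frees E2F transcription factors to switch on S phase genes. INK4 inhibitors, such as the products of Cdkn2c and Cdkn2d, bind CDK4 and CDK6, whereas p27, the product of Cdkn1b, mainly holds CDK2 in check. In lymphoid cells cyclin D3, cyclin D2 and CDK6 are prominent, and p27 is controlled largely through its breakdown, which transcript levels do not show.

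The study asks how inhibition of FGFR1 alters the transcriptomes of these lines. In the DMSO libraries 7 of 8 B-lineage markers reached 1 FPKM in BBC, where they summed to 1385 FPKM. All 5 T-lineage markers with an entry did so in ZNF, with a sum of 715 FPKM. BCRF8C in DMSO had 0 of 8 B-lineage and 2 of 5 T-lineage markers at that level, with sums of 0.655 and 16.3 FPKM, and the labels name no lineage. Cd3d is listed at 0 in both libraries of BCRF8C. With BGJ398 the B-lineage sum was 695 FPKM in BBC, 490 in ZNF (272 in DMSO, nearly all Rag1) and 10.7 in BCRF8C, and the T-lineage sum was 33.8 in BBC (31.1 in DMSO), 475 in ZNF and 13.8 in BCRF8C. Myeloid markers (4 of 7 with an entry) summed to at most 8.13 FPKM, erythroid ones (3 of 6) to at most 23.9, and stromal ones (3 of 6) to between 14.7 and 78.5, mostly Pecam1. The part of these markers in the results was not tested. The median level of the 14232 entries that averaged at least 1 FPKM was 8.36 to 9.95 FPKM in the DMSO libraries and 4.53 to 6.47 FPKM with BGJ398. Abundant genes were lower and nearly silent ones higher in each BGJ398 library. In DMSO, 876 entries of ZNF and 1233 of BCRF8C were listed at exactly 0.001 FPKM, against 70 and 147 with BGJ398. BBC had 0 such entries under either agent. Such a value can mark a failed estimate, and its part in the rise of nearly silent genes was not tested. Genes were split in each line into 10 equal bins by level. In the highest bin the median log2 ratio was -1.73 in BBC, -0.91 in ZNF and -1.86 in BCRF8C, and in the lowest bin it was 0.61, 1.31 and 1.64. Each change of a G1 regulator is therefore given also with this trend removed, that is, relative to genes of the same level in the same line. Library and agent cannot be told apart, and in bulk RNA neither can fewer cells of a type and less RNA per cell. Log2 ratios compare log2(FPKM + 1) values, so the change of low genes is understated.

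Promoter sequence is shown for the 3 kinase genes and for Cdkn1b, because the kinase genes fell together while Cdkn1b was not called. RefSeq (build GRCm38.p6) gave a window of 250 bases before to 50 after the annotated start for 7 of the 10 genes. These were Cdk2, Cdk4, Cdk6, Ccnd3, Cdkn1b, Cdkn2c and Cdkn2d, and windows of Ccnd1, Ccnd2 and Rb1 were not used here. Capitals mark matches to the E-box CACGTG, a letter string that MYC can bind, and to the E2F strings TTTCCCGC and TTTGGCGC, on either strand. The lines below run 5′ to 3′ on the strand of the gene. The Cdk4 window lies at chr10:127063285-127063584 (plus strand), that of Cdk6 at chr5:3343643-3343942 (plus), that of Cdk2 at chr10:128705002-128705301 (minus) and that of Cdkn1b at chr6:134920151-134920450 (plus).
Cdk4: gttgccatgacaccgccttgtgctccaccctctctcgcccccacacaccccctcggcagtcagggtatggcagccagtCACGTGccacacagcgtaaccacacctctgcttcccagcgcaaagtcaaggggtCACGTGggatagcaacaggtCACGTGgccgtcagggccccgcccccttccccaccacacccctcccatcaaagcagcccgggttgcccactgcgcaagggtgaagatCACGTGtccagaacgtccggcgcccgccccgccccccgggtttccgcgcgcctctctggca
Cdk6: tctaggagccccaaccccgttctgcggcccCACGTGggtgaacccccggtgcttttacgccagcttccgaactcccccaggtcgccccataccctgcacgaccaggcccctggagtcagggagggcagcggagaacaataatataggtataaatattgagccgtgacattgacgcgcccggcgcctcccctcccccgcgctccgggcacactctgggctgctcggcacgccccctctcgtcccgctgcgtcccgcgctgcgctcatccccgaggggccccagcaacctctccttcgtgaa
Cdk2: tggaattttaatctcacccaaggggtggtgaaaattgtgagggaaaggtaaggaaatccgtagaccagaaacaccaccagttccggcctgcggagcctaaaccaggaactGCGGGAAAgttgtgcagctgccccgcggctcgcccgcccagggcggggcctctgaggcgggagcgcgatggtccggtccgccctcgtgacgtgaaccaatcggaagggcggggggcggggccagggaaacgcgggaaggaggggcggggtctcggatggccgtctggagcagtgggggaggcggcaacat
Cdkn1b: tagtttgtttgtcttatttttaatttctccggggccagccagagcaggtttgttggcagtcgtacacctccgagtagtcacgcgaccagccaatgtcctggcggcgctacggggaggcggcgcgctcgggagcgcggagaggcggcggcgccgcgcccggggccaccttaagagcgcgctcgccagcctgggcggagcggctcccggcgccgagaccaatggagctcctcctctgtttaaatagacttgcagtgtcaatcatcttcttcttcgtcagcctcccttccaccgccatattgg

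Cdk4 held 4 E-boxes, which begin at -172, -118, -98 and -11 when the start base is counted as 0. Of 32851 windows from RefSeq, 2349 (7.15%) held at least 1 E-box and 8 (0.0244%) at least 4. The Cdk6 window held 1 E-box at -220, and 1 of the 2 Cdkn2c windows held 1 at 34. An E2F string was found in Cdk2 alone among the windows looked at, as GCGGGAAA from -140, and 514 of all windows (1.56%) held either E2F string. Neither window of Ccnd3, nor those of Cdkn1b and Cdkn2d, held any of these strings, and the STAT-type string TTCNNNGAA was in none of the 9 windows against 8.30% of all. Such matches describe letters in the window and not binding.

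In the deposited table, on build NCBIM37, the locus of Ccnd1 is chr7:152101005-152125774, that of Ccnd2 chr6:127075797-127162429 and that of Ccnd3 chr17:47642000-47748441. Cdk4 is at chr10:126500590-126507317, Cdk6 at chr5:3343893-3523218 and Cdk2 at chr10:128134995-128142107. Cdkn1b is at chr6:134870419-134875531, Cdkn2c at chr4:109333481-109339794, Cdkn2d at chr9:21092907-21095653 and Rb1 at chr14:73522844-73725629. These loci can span neighbours: 6 of the 10 are shared with other entries, among them Bysl for Ccnd3, Tspan31 for Cdk4, Gm17590 for Cdk6 and Lpar6 and Rcbtb2 for Rb1.

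Across the lines, the kinase genes and the cyclin genes Ccnd3 and Ccnd2 fell with BGJ398, as did the inhibitor gene Cdkn2c. Cdkn1b and Rb1 stayed closest to their DMSO levels. In limma with the line as a block, 6 of the 10 G1 regulators were lower at an adjusted p under 0.05, against 30.2% of the 14232 genes tested, and 0 were higher, against 6.61%. In 9 of the 10 the level was lower in all 3 lines, against 55.7% of all genes; Cdkn2d is among the 9 and passed the filter only through its DMSO levels. The median log2 ratio of the 10 was -1.20 beside -0.69 over all genes tested. With the trend on level removed, limma called 0 of the 10 (4 had an unadjusted p under 0.05) and 0 of 14232 genes (3084 unadjusted), and the median of the 10 was -0.38 beside 0.03. The calls were also lost without BBC and without BCRF8C, each leaving 0 of the 10 called.

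**Figure D1:**
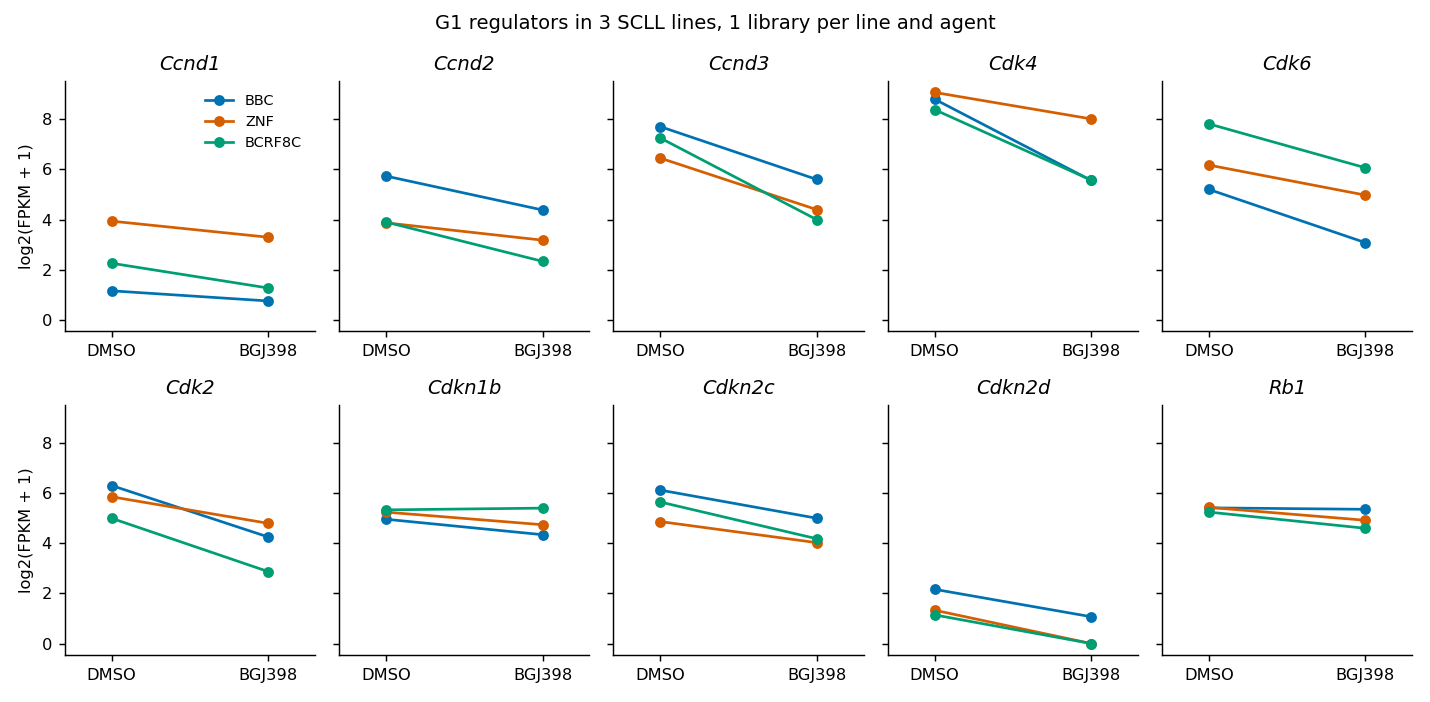
Levels of the 10 G1 regulators as log2(FPKM + 1) on the vertical axis, in DMSO and with BGJ398, with 1 line per cell line and 1 point per library. Ccnd3, Cdk4 and Cdk2 drop in all 3 lines, while Cdkn1b and Rb1 have the smallest mean changes, with log2 ratios between -0.65 and 0.07 in single lines.

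Ccnd3, which encodes cyclin D3, was the most abundant D cyclin gene in every library. It stood at 207 FPKM in BBC, 86.3 in ZNF and 151 FPKM in BCRF8C in DMSO, and at 47.4, 20.02 and 14.9 FPKM with BGJ398. Every BGJ398 library was below every DMSO library, a separation also seen for Cdk4 and Cdk2. That makes 3 of the 10, a share near the 35.1% of all genes tested, so it does not set the G1 regulators apart. Cdkn2d is not counted, because it passed the filter through its DMSO levels and is listed at 0.001 FPKM in 2 BGJ398 libraries. Such genes were not left out of the 35.1%. The fall of Ccnd3 was 4.38-fold in BBC, 4.31-fold in ZNF and 10.1-fold in BCRF8C, and its mean log2 ratio was -2.47 ± 0.68 (SD, n = 3 lines; limma adjusted p = 0.0348). With the trend removed the log2 ratios were -0.32 (BBC), -1.23 (ZNF) and -1.54 (BCRF8C). In ZNF its change lay at percentile 2.25 of genes in its level bin, in BCRF8C at percentile 10.8 and in BBC at percentile 32.8. Ccnd3 thus stood apart from genes of its level in ZNF more than in BBC, a difference that was not tested.

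Ccnd2, which encodes cyclin D2, was highest in BBC. Its level was 52.1 FPKM in BBC, 13.6 in ZNF and 13.9 in BCRF8C in DMSO, and 19.8, 8.04 and 4.04 FPKM with BGJ398. The BBC library with BGJ398 remained above both other lines in DMSO, so the groups overlapped. The mean log2 ratio was -1.20 ± 0.46 (SD, n = 3 lines; limma adjusted p = 0.0379). With the trend removed the ratio in BBC turned to 0.23, and those in ZNF and BCRF8C were -0.13 and -0.49.

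Ccnd1, which encodes cyclin D1, was low in BBC and BCRF8C and highest in ZNF, where it was above the median of genes tested and close to Ccnd2. In DMSO it was at 1.23 FPKM in BBC, 14.3 in ZNF and 3.78 FPKM in BCRF8C, and with BGJ398 at 0.686, 8.81 and 1.41 FPKM. It was lower in each line, yet the levels of the lines were further apart than those of the agents. The change did not pass the test (-0.68 ± 0.29, SD, n = 3 lines; limma adjusted p = 0.107), and its mean lay 0.02 above the median of all genes. With the trend removed the mean was -0.72, from -0.86 in BBC, -0.07 in ZNF and -1.23 in BCRF8C. With BGJ398 Ccnd1 stood low among entries above 0 in BBC and BCRF8C, at percentiles 2.27 and 11.2, against 23.8 and 41.2 in DMSO. The same low level ranked differently under the agents. In BCRF8C, Cdkn2d at 1.21 FPKM in DMSO stood at percentile 30.4, above Ccnd1 at 1.41 FPKM with BGJ398. The drop in percentile there thus does not reflect Ccnd1 alone.

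The summed D cyclin level went from 261 to 67.9 FPKM (BBC), 114 to 36.9 (ZNF) and 169 to 20.4 (BCRF8C), which is 3.84-fold, 3.10-fold and 8.28-fold lower. Ccnd3 supplied 79.5% of that sum in BBC, 75.6% in ZNF and 89.5% in BCRF8C in DMSO. With BGJ398 its share was 69.8%, 54.3% and 73.2%, lower in 3 of 3 lines. The remainder differed by line. In BBC it was Ccnd2, at 20.01% in DMSO and 29.2% with BGJ398, with Ccnd1 at 0.472% and 1.01%. ZNF held Ccnd1 and Ccnd2 in near-equal shares of 12.5% and 11.9% in DMSO, and 23.9% and 21.8% with BGJ398. In BCRF8C Ccnd2 went from 8.25% to 19.8% and Ccnd1 from 2.24% to 6.93%. A single scaling factor per library leaves these shares as they are, but quantile normalization does not. It turned the direction of the Ccnd1 share in BBC (0.578% in DMSO, 0.079% with BGJ398) and in BCRF8C (3.42% and 1.96%). The Ccnd3 share stayed lower with BGJ398 in 3 of 3 lines, at 70.1%, 55.6% and 81.9% against 79.1%, 72.7% and 87.5% in DMSO.

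**Figure D2:**
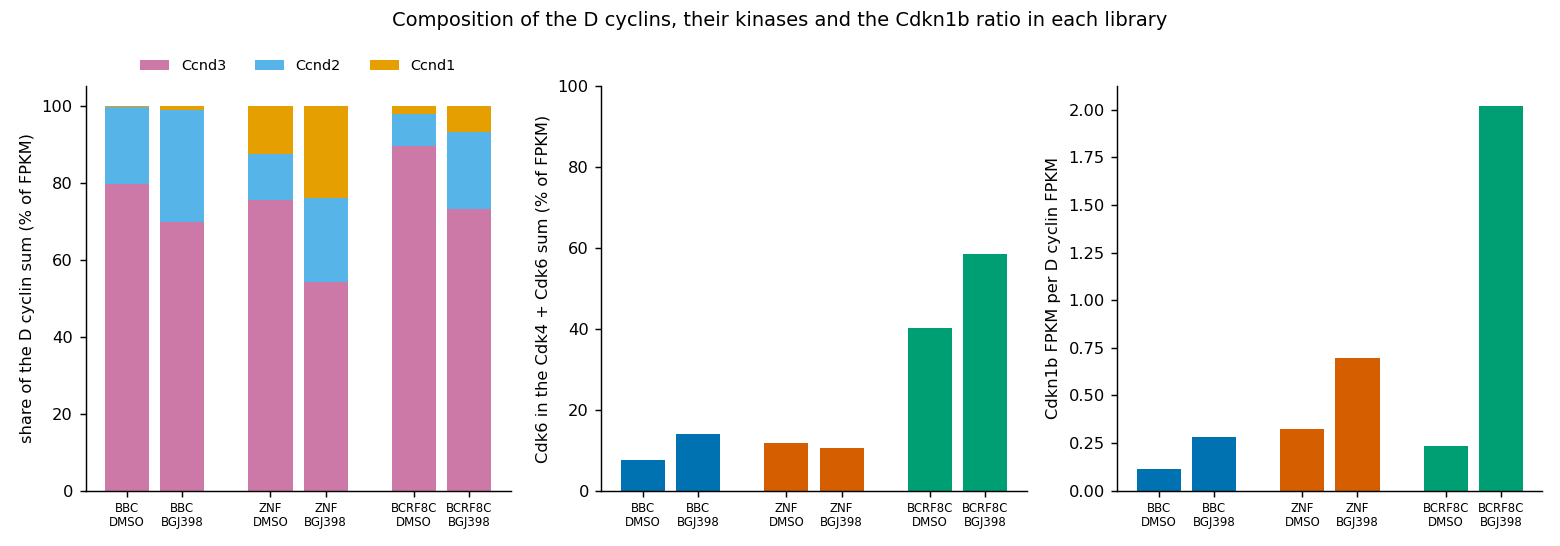
Bars start at 0 and show, for each line and agent (1 library each), the share of Ccnd1, Ccnd2 and Ccnd3 in their summed FPKM, the share of Cdk6 in the sum of Cdk4 and Cdk6, and Cdkn1b FPKM per D cyclin FPKM. The Ccnd3 share is lower and the Cdkn1b ratio higher with BGJ398 in each line, and Cdk6 is prominent in BCRF8C, at 40.2% and 58.6%.

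Cdk4, the gene of the cyclin D kinase CDK4, was the most abundant of the 10 in DMSO. It went from 443 to 46.1 FPKM (BBC), 535 to 257 (ZNF) and 332 to 46.5 (BCRF8C). The groups did not overlap, and the drop was 9.61-fold in BBC and 7.13-fold in BCRF8C but 2.08-fold in ZNF. Its mean log2 ratio was -2.37 ± 1.16 (SD, n = 3 lines; limma adjusted p = 0.0353). With the trend removed the log2 ratios were -1.43 (BBC), -0.17 (ZNF) and -0.76 (BCRF8C). In its level bin that was percentile 5.28 in BBC, 37.2 in ZNF and 19.5 in BCRF8C. Its entry shares the locus the table gives with Tspan31, and reads of neighbours that overlap cannot be told apart without strand.

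Cdk6, the gene of the other cyclin D kinase, differed more between lines than Cdk4 and Cdk2 did. In DMSO it was at 35.7 FPKM in BBC, 70.9 in ZNF and 223 FPKM in BCRF8C, and with BGJ398 at 7.44, 30.4 and 65.8 FPKM. BCRF8C with BGJ398 was above BBC in DMSO, so the groups overlapped, although the level was lower in all 3 lines. The mean log2 ratio was -1.69 ± 0.47 (SD, n = 3 lines; limma adjusted p = 0.0348), and with the trend removed the ratios were -0.72, -0.36 and 0.29 in BBC, ZNF and BCRF8C. Its share in the sum of Cdk4 and Cdk6 went from 7.46% to 13.9% (BBC), 11.7% to 10.6% (ZNF) and 40.2% to 58.6% (BCRF8C). The predicted gene Gm17590 has the same locus in the table and was at 7816 FPKM in ZNF in DMSO, against 122 in BBC and 782 in BCRF8C. With BGJ398 it was lower in ZNF (523 FPKM) and BCRF8C (43.4) but higher in BBC (195). Its part in the Cdk6 value was not tested.

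Cdk2, the gene of the cyclin E and cyclin A kinase, was at 77.7 FPKM in BBC, 56.7 in ZNF and 30.8 FPKM in BCRF8C in DMSO. With BGJ398 it was at 18.01 FPKM in BBC, 26.7 in ZNF and 6.31 FPKM in BCRF8C, below every DMSO library. The mean log2 ratio was -1.74 ± 0.60 (SD, n = 3 lines; limma adjusted p = 0.0348). With the trend removed it remained below 0 in each line, with log2 ratios of -0.42 (BBC), -0.24 (ZNF) and -0.81 (BCRF8C).

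Kinase and cyclin levels did not move in step. The sum of Cdk4 and Cdk6 was 1.84 times the D cyclin sum in BBC in DMSO and 0.789 times with BGJ398. In ZNF the ratio went the other way, from 5.31 to 7.79, and in BCRF8C from 3.29 to 5.51. BBC was thus the line in which kinase transcripts dropped further than cyclin transcripts, with 1 library behind each value.

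Cdkn1b, the gene of the inhibitor p27, was even across lines, at 30.03 FPKM in BBC, 36.8 in ZNF and 39.2 FPKM in BCRF8C in DMSO. With BGJ398 it was at 19.3, 25.7 and 41.2 FPKM. It was lower in BBC and ZNF and about level in BCRF8C, and the groups overlapped. The mean log2 ratio was -0.35 ± 0.37 (SD, n = 3 lines), which did not pass the test (limma adjusted p = 0.420) and lay 0.34 above the median of all genes. The sign depended on the scaling: the mean ratio was 0.38 under median-of-ratios scaling, 0.89 with quantile normalization and 0.96 with the trend removed (limma adjusted p = 0.354, 0.221 and 0.211). Within its library, among entries above 0, Cdkn1b stood at percentile 79.9 in DMSO and 88.5 with BGJ398 in BBC, at 81.9 and 84.2 in ZNF and at 83.3 and 95.1 in BCRF8C.

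Set against the cyclins, the Cdkn1b level was 0.115 FPKM per FPKM of summed D cyclins in BBC in DMSO, 0.322 in ZNF and 0.232 in BCRF8C. With BGJ398 the ratio was 0.284, 0.696 and 2.02, which is 2.46 times, 2.16 times and 8.71 times as high. Against its other partner Cdk2, Cdkn1b went from 0.386 to 1.07 FPKM per FPKM (BBC), 0.648 to 0.961 (ZNF) and 1.27 to 6.53 (BCRF8C). Both ratios were higher in 3 of 3 lines, but flipping signs over 3 pairs exactly gives no p smaller than 0.25, so no test was made. In BBC, ZNF and BCRF8C the D cyclin sum fell 3.84-fold, 3.10-fold and 8.28-fold, and Cdk2 fell 4.32-fold, 2.12-fold and 4.89-fold. A gene at an unchanged level would be higher against them by as much. The median log2 ratio over all genes was -0.87 in BBC, -0.48 in ZNF and -0.80 in BCRF8C. A gene that changed by this median would thus also be higher against both in each line, so the direction is not particular to Cdkn1b. Cdkn1b itself was lower in BBC and ZNF and about level in BCRF8C.

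Cdkn2c, the gene of the INK4 inhibitor p18, fell along with the kinases it binds. Its level went from 68.4 to 30.9 FPKM (BBC), 28.1 to 15.2 (ZNF) and 48.9 to 17.1 (BCRF8C), lower in each line with overlapping groups. The mean log2 ratio was -1.14 ± 0.31 (SD, n = 3 lines; limma adjusted p = 0.0439). The direction depended on the scaling: the mean was -0.41 under median-of-ratios scaling but 0.064 with quantile normalization and 0.18 with the trend removed. Relative to the D cyclin sum, which fell further in each line, it went from 0.262 to 0.455 (BBC), 0.246 to 0.413 (ZNF) and 0.290 to 0.839 (BCRF8C).

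Cdkn2d, the gene of the INK4 inhibitor p19, was close to the limit of the table. It was at 3.48 FPKM in BBC, 1.51 in ZNF and 1.21 FPKM in BCRF8C in DMSO, and at 1.10 FPKM in BBC with BGJ398. In ZNF and BCRF8C with BGJ398 it is listed at 0.001 FPKM, a value that 70 and 147 entries share exactly in those libraries and that can mark a failed estimate, so no fold is given. It passed the filter of 1 FPKM on the mean only through its DMSO levels, and its mean log2 ratio of -1.19 ± 0.12 (SD, n = 3 lines) did not pass the test (limma adjusted p = 0.0642). With the trend removed the mean was -1.63. In ZNF and BCRF8C these ratios reflect the DMSO level alone, so neither the SD nor the test measures the spread of a response.

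Rb1, the gene of the retinoblastoma protein itself, was the steadiest between lines in DMSO, at 41.5 FPKM in BBC, 42.1 in ZNF and 36.8 FPKM in BCRF8C. With BGJ398 it was at 39.8, 29.1 and 23.2 FPKM, and the BBC library overlapped the DMSO range. The mean log2 ratio was -0.41 ± 0.31 (SD, n = 3 lines; limma adjusted p = 0.351), 0.29 above the median of all genes. As with Cdkn1b the sign depended on scaling, with means of 0.32 under median-of-ratios scaling, 0.79 with quantile normalization and 0.93 with the trend removed, and no call in any. In BBC its change was at percentile 90.6 of genes in its level bin, in ZNF at percentile 77.9 and in BCRF8C at percentile 87.6. Rb1 relative to the D cyclin sum, which fell further in each line, went from 0.159 to 0.587 (BBC), 0.369 to 0.791 (ZNF) and 0.218 to 1.14 (BCRF8C).

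**Figure D3:**
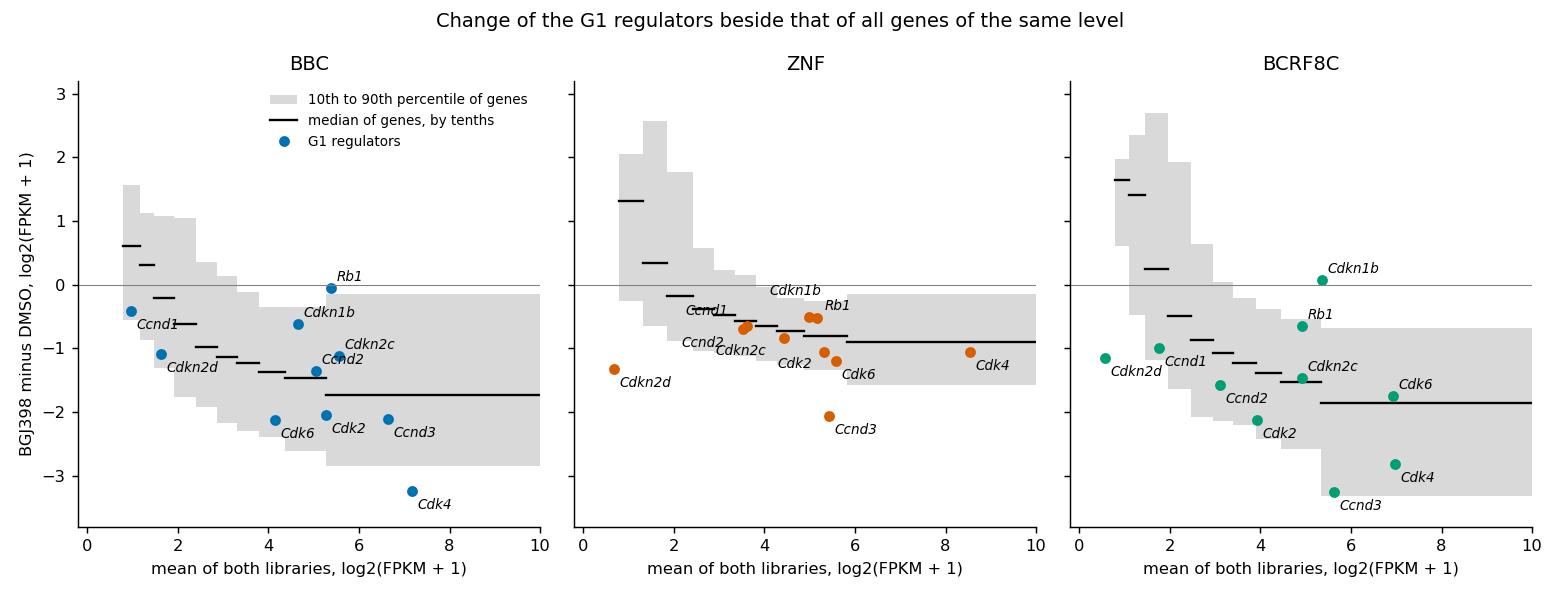
For each line, the log2 ratio of BGJ398 to DMSO (vertical axis) against the mean level of both libraries (horizontal axis, log2(FPKM + 1)). Black bars give the median and grey boxes the 10th to 90th percentile of all genes in each of 10 bins by level, and points are the 10 G1 regulators. Cdk4 in BBC and Ccnd3 in ZNF lie below the grey boxes, and Rb1 in BBC and Cdkn1b in BCRF8C lie above them.

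Within single lines, and on log2(FPKM + 1), the count of G1 regulators at least 2-fold lower with BGJ398 was 7 of 9 in BBC, against 45.0% of the genes that averaged at least 1 FPKM there. In ZNF it was 4 of 9 against 16.3%, and in BCRF8C 6 of 9 against 43.5%. On this scale Ccnd1 in BCRF8C was just short of the threshold (-0.99), although its FPKM was 2.68-fold lower. Ccnd3, Cdk4, Cdk6 and Cdk2 were past 2-fold in every line, and Ccnd2 and Cdkn2c in BBC and BCRF8C. ZNF thus had the fewest such changes among the G1 regulators and among genes at large, and its median log2 ratio over all genes was closest to 0 (-0.48, against -0.87 in BBC and -0.80 in BCRF8C). With 1 library per line and agent these counts carry no test.

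Without inhibitor, the 10 genes spanned from 1.14-fold to 11.6-fold between the lines in FPKM. Ccnd1 was 11.6 times as high in ZNF as in BBC. Cdk6 was 6.25 times as high in BCRF8C as in BBC and 3.15 times as high as in ZNF. Ccnd2 was 3.84 times as high in BBC as in ZNF, while ZNF and BCRF8C differed by 1.02-fold. Cdkn2d spanned 2.87-fold, Cdk2 2.52-fold, Cdkn2c 2.43-fold and Ccnd3 2.40-fold, while Cdk4 spanned 1.61-fold, Cdkn1b 1.305-fold and Rb1 1.14-fold. BBC was highest for 5 of the 10 genes: Ccnd2, Ccnd3, Cdk2, Cdkn2c and Cdkn2d. Counted on log2(FPKM + 1), which shrinks the folds of low genes such as Cdkn2d, differences of at least 2-fold were seen in 4 of 10 between BBC and ZNF (28.4% of all genes), in 5 of 10 between BBC and BCRF8C (30.9%) and in 2 of 10 between ZNF and BCRF8C (32.6%). No library was repeated, so neighbours in the order of levels cannot be separated by a test.

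The rest of the G1 and S phase pathway was read from 58 genes listed by role, of which 57 had an entry and were tested. In limma 38 of them fell, against 30.2% of all genes tested, and 0 rose, against 6.61%. Their median log2 ratio was -1.41, beside -0.69 for all genes, and -0.30 beside 0.03 with the trend removed, where none was called. All 16 E2F targets of S phase fell, with a median of -1.84, or -0.52 with the trend removed. They were led by the helicase subunit genes Mcm2 (-2.33 ± 0.99), Mcm5 (-2.17 ± 0.57) and Mcm3 (-2.15 ± 0.56). Of the cyclin partners of CDK2, Ccna2 (-1.44 ± 0.27, but 0.11 with the trend removed) and Ccne1 (-1.41 ± 0.66) fell. Ccne2, chosen after its values were seen, did not pass and went from 51.0 to 13.5 FPKM in BBC and from 37.2 to 31.5 in ZNF but from 58.3 to 72.4 in BCRF8C. Cdc25a, which encodes a phosphatase that activates CDK2, fell (-1.44 ± 0.57). Adjusted p for the pathway genes called here lay between 0.0348 and 0.0482.

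Of 9 genes for the turnover of p27 and cyclins 6 fell, against 30.2% of all genes, and the median of the 9 was -0.18 with the trend removed. They include Cks1b, a cofactor of the ubiquitin ligase that marks p27 (-2.23 ± 0.42), and the ligase subunit genes Rbx1 (-1.84 ± 0.83) and Skp1a (-1.59 ± 0.60, but -0.066 with the trend removed). Among other inhibitor genes Cdkn2a, whose entry covers both of its products, INK4a and ARF, went from 230 to 33.1 FPKM (BBC), 89.7 to 32.6 (ZNF) and 106 to 17.2 (BCRF8C) (-2.25 ± 0.71). Cdkn1a and Cdkn2b did not pass, and Cdkn1c was not analysed here. In the E2F and DP group 4 of 10 fell, a share near the 30.2% of all genes, with a median of -0.19 when the trend was removed. The largest were Tfdp1, the partner subunit of E2F factors (-2.09 ± 0.97), E2f4 (-1.78 ± 1.13) and E2f5 (-1.23 ± 0.82). Of the pocket protein genes related to Rb1, Rbl1 fell (-1.22 ± 0.33, but -0.094 with quantile normalization and -0.0030 with the trend removed), whereas Rbl2 (0.28 ± 0.47) did not pass. Genes of the CDK-activating kinase fell in 2 of 3, against 30.2% of all genes, and the median of the 3 was -0.12 with the trend removed. The 2 were Ccnh (-1.15 ± 0.44, but 0.032 with quantile normalization and 0.15 with the trend removed) and Cdk7 (-1.08 ± 0.53). Upstream regulators fell in 5 of 10, against 30.2% of all genes, and their median was -0.13 with the trend removed. The largest were the kinase genes Pim3 (-1.89 ± 1.01), Pim1 (-1.84 ± 0.74) and Akt1 (-1.81 ± 0.85). Myc, whose product can bind the E-box, went from 71.3 to 5.66 FPKM (BBC), 63.2 to 48.6 (ZNF) and 64.4 to 20.01 (BCRF8C) and did not pass (limma adjusted p = 0.0552).

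**Figure D4:**
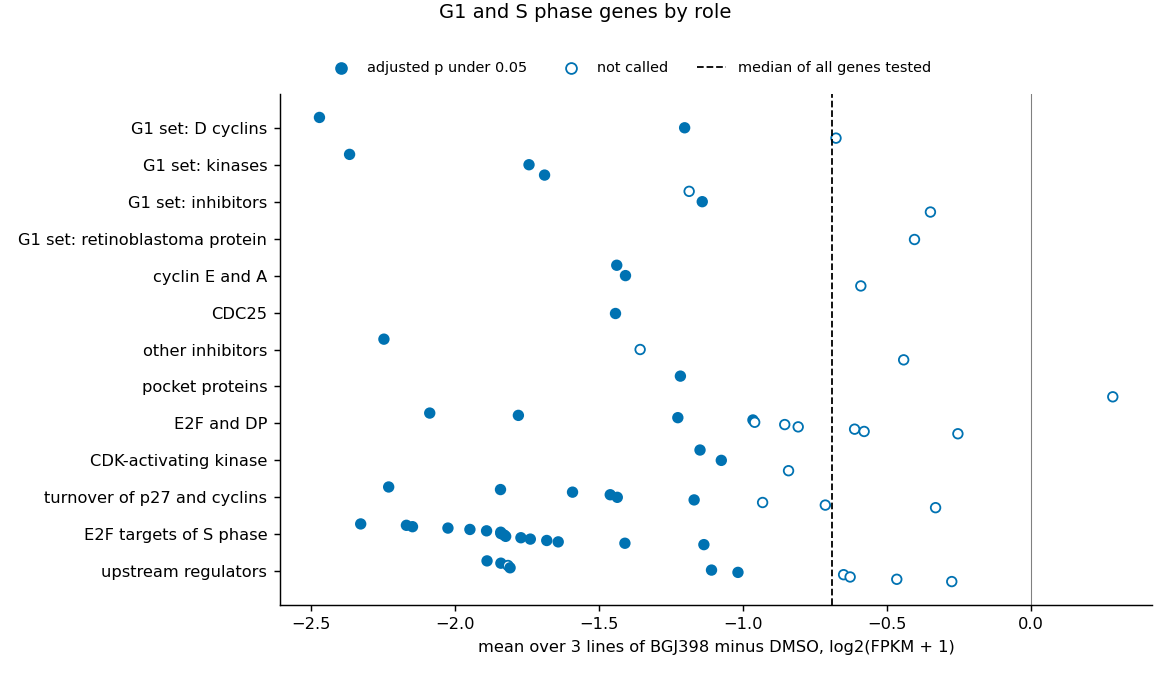
Mean over 3 lines of the log2 ratio of BGJ398 to DMSO on log2(FPKM + 1) (horizontal axis) for each gene, in rows by role, with the 10 G1 regulators in the top 4 rows. Filled points passed limma at an adjusted p under 0.05 and the dashed line is the median of all genes, -0.69. The E2F targets are all filled and left of the dashed line, while Cdkn1b, Rb1 and Rbl2 are open and right of it.

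Genes most like each D cyclin were sought among 7442 named genes averaging 5 FPKM or more, by the mean absolute difference of centred log2(FPKM + 1) values over the 6 libraries. For Ccnd1 these were Fam169b (0.16), H2-Q1 (0.21), whose reads may be shared with related MHC genes, and Cpt1a (0.22). Ccnd2 was closest to Snx8 (0.12), Iscu (0.15) and Ube2a (0.16), and Ccnd3 to Timm17b (0.24), Ndufa2 (0.25) and Tap1 (0.28). Tap1, for instance, stood at 103 (BBC), 40.5 (ZNF) and 65.9 FPKM (BCRF8C) in DMSO and at 27.1, 15.9 and 10.4 FPKM with BGJ398. The order of lines was that of Ccnd3 under each agent, which comes with the choice of Tap1 by likeness over the same 6 libraries.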

How the data were processed

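RNA from 6 libraries (3 lines, DMSO and BGJ398) was sequenced with standard Illumina protocols, per the labels' protocols. Reads were handled with bcl2fastq and TopHat2 2.0.12 on build NCBIM37, per the submitters' processing notes. The authors deposited 1 table of FPKM values; the program that made them is not given in the sources used here. FPKM hold no counts, so depth is unknown and no counting intervals are given. Libraries were assigned by the line and agent in their titles.

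Values were analysed as log2(FPKM + 1). The 14232 entries averaging 1 FPKM or more across the 6 libraries were fitted in limma 3.58.1 (R 4.3.3) with agent and line as terms. The fit left 2 residual degrees of freedom, and the variance of each gene was drawn toward a mean-variance trend over all genes. The p-values thus rest in part on the spread of other genes. For Cdkn2d, for instance, the limma standard error was 0.42, although the SD over the 3 lines was 0.12. All p-values were adjusted over the 14232 entries by Benjamini-Hochberg. The line is a block because both its libraries come from the same line; deviations within a line correlated at 0.454 (BBC), 0.541 (ZNF) and 0.549 (BCRF8C), and at most -0.179 between lines. The trend on level was a lowess curve (span 0.3) of the log2 ratio on the mean log2 value in each line. Within-line counts used entries averaging 1 FPKM or more in the libraries compared and a 2-fold threshold on log2(FPKM + 1). The fit was tested on simulated data. These had independent noise and no trend on level, so the simulation does not bear on how the trend affects the calls.

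The text names all 10 G1 regulators, up to 3 called genes with the largest change per pathway role, and 3 genes most like each D cyclin, leaving out predicted, RIKEN, receptor-cluster, histone, ribosomal and pseudogene names. The G1 regulators and the lists were chosen with earlier results of these data known. Alternatives were other scalings, pseudocounts, filters, no line block, and leaving out each line.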

Additional observations from a re-analysis of the deposited data

Results flagged for a closer look

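Cdkn1b, in the values as deposited, had opposite signs between lines: its log2 ratio was -0.62 in BBC and -0.50 in ZNF but 0.070 in BCRF8C. Its sign was the same in all 3 lines with quantile normalization (0.73, 0.19 and 1.74) and with the trend removed (0.88, 0.28 and 1.73). Signs differed instead for Ccnd2, Cdk6 and Cdkn2c once the trend was removed. With 1 library per line and agent, the difference between lines was not tested.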

How the results depend on the processing

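As deposited, limma called 5236 genes (82.0% of them lower) and 6 of the 10 G1 regulators. Median-of-ratios scaling left 4 genes (3 higher, 1 lower), quantile normalization 3 (2 higher, 1 lower) and removal of the trend 0 (3084 at an unadjusted p under 0.05), and 0 G1 regulators were called under each (4, 5 and 4 at an unadjusted p under 0.05). These moved the median log2 ratio of all genes from -0.69 to -0.07, -0.11 and 0.03. With no replicate block for the line 7 genes and 0 G1 regulators were called (5 unadjusted). Leaving out a line gave 0 to 4974 genes and 0 to 6 G1 regulators: 0 and 0 without BBC (2991 genes and 4 G1 regulators unadjusted), 1648 (51.7% lower) and 0 without BCRF8C (5 unadjusted), and 4974 and 6 without ZNF. With no filter, or with genes above 0 in all 6 libraries, 7 were called, Cdkn2d included, and at a mean of at least 5 FPKM Cdkn2d was not tested. Mean log2 ratios changed sign for Cdkn1b (0.38, 0.89 and 0.96 under median-of-ratios scaling, quantile normalization and trend removal), Rb1 (0.32, 0.79 and 0.93), Cdkn2c (0.064 and 0.18 under the last pair), Ccnh (0.032 and 0.15) and Ccna2 (0.11, trend removed). Within lines the same last pair of settings gave 0.059 and 0.23 for Ccnd2 in BBC, 0.37 and 0.56 for Cdkn2c in BBC and 0.15 and 0.29 for Cdk6 in BCRF8C, and trend removal 0.10 for Cdkn2c in BCRF8C. Under the 3 settings in turn, G1 regulators at least 2-fold lower numbered 3, 2 and 1 in BBC (7 as deposited), 1, 1 and 1 in ZNF (4) and 3, 3 and 2 in BCRF8C (6). The cause was not tested. Depth is unknown, and 1 library per line and agent limits the precision of each value.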
